A study of Homo sapiens with 21 samples.

Results

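The keratin genes were taken as the protein-coding genes on chromosomes 12 and 17 whose symbols are KRT followed by a number and, for some, a letter A to C. This rule found 55 genes among the 57500 in each count table, 27 on chromosome 12 and 28 on chromosome 17. The samples were xenografts of the cell line HT1376, which comes from a human bladder carcinoma, in the right flank (subcutaneous) of female CB17 SCID mice aged 6 to 8 weeks. The 21 RNA-seq libraries fell into 7 groups of 3: CPI-0209, Valemetostat, MAK683, tazemetostat, PF-06821497, CPI-1205 and vehicle. Each compound was given by mouth once a day at 75 mg/kg, starting 11 to 15 days after implantation at mean tumour volumes of 139 to 160 mm3, with tissue collected on day 15, 1 hour after dosing. All groups share 1 cell line, mice that lack T and B cells, and Matrigel, a basement membrane extract, at the implant. The series calls all 6 compounds EZH2 inhibitors. Of these, MAK683 binds the EED subunit of the same complex, and Valemetostat also inhibits EZH1. Action of the other compounds on EZH1 is not considered here.

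Keratins are the intermediate filament proteins of epithelia, and a filament is built from pairs of a type I keratin, encoded on chromosome 17 except for KRT18, and a type II keratin, encoded on chromosome 12. Which pair a cell makes follows its position and type. KRT8 and KRT18 mark simple and luminal epithelium, KRT5 and KRT14 the basal layer, KRT1 and KRT10 the suprabasal cells of cornifying epidermis, and KRT6 with KRT16 wounded or hyperproliferative epithelium. Hair keratins and their partners harden the hair shaft. In the bladder, KRT20 marks the umbrella cells at the surface, and KRT5 and KRT14 mark basal cells and the basal and squamous type of bladder carcinoma. EZH2 is the catalytic subunit of PRC2, a polycomb complex that methylates histone H3 at genes that are kept silent.

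Tumours given CPI-0209 had 18 keratins lower and 3 higher than vehicle tumours, of 41 tested. KRT1 of the epidermal pair fell most and was 13.3-fold lower. Its partner KRT10 was 6.21-fold lower, and KRT4 fell nearly as much as KRT10. KRT5 and KRT14 of the basal layer and KRT6A, KRT6B, KRT6C and KRT16 fell by less, and the simple keratins KRT7, KRT8 and KRT18 passed no test. KRT20 and the hair keratins KRT34 and KRT81 were higher. Valemetostat gave 9 lower and 3 higher, MAK683 3 lower and 3 higher, PF-06821497 1 lower and 1 higher, and tazemetostat and CPI-1205 none. Over all 21958 genes tested, the share past the same threshold was 41.1% with CPI-0209 (18.8% lower and 22.3% higher), 27.3% with Valemetostat (12.2% lower and 15% higher), 15.6% with MAK683 (5.17% lower and 10.4% higher), 9.55% with PF-06821497 (3.59% lower and 5.96% higher), and 0% with tazemetostat and with CPI-1205. Among keratins the median log2 fold change with CPI-0209 was -0.41, and over all genes tested it was -0.02. Upper-quartile scaling moved that median over all genes to 0.12, with 67.5% of all calls higher against 54.2% with TMM, and left 16 keratins lower and 3 higher with CPI-0209.

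Levels are given as RPKM, counts divided by gene length and by the TMM-scaled library size, so that genes can be set beside each other. Fold changes and tests come from edgeR's quasi-likelihood method, fitted once to the 21 libraries, with Benjamini-Hochberg adjustment over all genes tested and a threshold of 0.05; SE is the standard error of a log2 fold change, and every mean has an SD over n = 3. All comparisons with vehicle share the same 3 vehicle libraries and are therefore not independent of each other. The labels do not say that the libraries came from separate animals, so a p-value here measures library-to-library spread, which may be technical. Library totals ran from 9725690 counts (CPI-0209 replicate 3) to 25771778, and keratins took 1.55% to 3.29% of a library's counts. Valemetostat replicate 3 and PF-06821497 replicate 2 stood apart from the rest of their groups by a lower summed keratin level, and CPI-0209 replicate 3 by a high level of skeletal muscle genes. In a bulk sample fewer cells of a type and less RNA per cell cannot be told apart. Any removal of mouse reads is not given in the sources used here, so counts from mouse skin, muscle or stroma on human genes cannot be told apart from those of the tumour cells.

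Promoters of 5 keratins that changed with CPI-0209 are shown: KRT10, KRT3 and KRT4 of the suprabasal class, which fell, and KRT20 and KRT34, which rose. KRT1 and KRT81 are not among the keratins matched. Each runs from 250 bases before to 50 bases after the RefSeq start site in GRCh38.p14, 5′ to 3′ on the gene's strand, which is the minus strand for all 5. They lie at chr17:40822565-40822864 (KRT10), chr12:52796068-52796367 (KRT3), chr12:52814067-52814366 (KRT4), chr17:40885193-40885492 (KRT20) and chr17:41382257-41382556 (KRT34). Capitals mark TATAAA, the core letters of a TATA box.
KRT10 promoter: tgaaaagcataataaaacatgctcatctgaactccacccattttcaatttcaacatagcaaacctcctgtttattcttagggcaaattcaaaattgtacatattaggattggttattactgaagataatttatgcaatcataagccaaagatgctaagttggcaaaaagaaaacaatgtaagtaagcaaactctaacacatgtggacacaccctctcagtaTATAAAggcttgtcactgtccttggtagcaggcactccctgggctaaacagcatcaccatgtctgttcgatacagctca
KRT3 promoter: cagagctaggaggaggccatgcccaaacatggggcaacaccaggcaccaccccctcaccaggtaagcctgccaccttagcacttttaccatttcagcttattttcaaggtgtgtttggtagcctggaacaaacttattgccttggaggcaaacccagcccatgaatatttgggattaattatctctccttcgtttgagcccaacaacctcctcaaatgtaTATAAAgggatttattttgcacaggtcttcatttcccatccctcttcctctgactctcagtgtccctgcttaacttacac
KRT4 promoter: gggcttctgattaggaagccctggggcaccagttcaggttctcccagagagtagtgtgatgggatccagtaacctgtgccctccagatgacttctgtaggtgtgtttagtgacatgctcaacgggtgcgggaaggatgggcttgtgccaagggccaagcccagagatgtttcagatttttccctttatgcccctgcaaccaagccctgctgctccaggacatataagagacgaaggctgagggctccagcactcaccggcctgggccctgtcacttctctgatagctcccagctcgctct
KRT20 promoter: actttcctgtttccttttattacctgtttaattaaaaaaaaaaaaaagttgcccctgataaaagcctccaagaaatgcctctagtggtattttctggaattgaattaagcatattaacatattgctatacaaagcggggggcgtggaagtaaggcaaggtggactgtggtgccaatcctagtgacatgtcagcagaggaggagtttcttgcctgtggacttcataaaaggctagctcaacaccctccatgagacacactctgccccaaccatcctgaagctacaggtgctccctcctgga
KRT34 promoter: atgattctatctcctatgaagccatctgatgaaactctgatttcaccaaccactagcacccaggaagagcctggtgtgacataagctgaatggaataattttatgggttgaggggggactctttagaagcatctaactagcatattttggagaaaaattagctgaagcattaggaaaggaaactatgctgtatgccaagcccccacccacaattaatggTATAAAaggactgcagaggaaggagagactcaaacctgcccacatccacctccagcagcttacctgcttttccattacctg
TATAAA stood at position -29 from the start in KRT10, at -30 in KRT3 and at -31 in KRT34, and was not in the windows of KRT4 and KRT20. Among the genes shown, it was thus present in promoters of keratins that fell and of a keratin that rose. RefSeq promoters were matched for 34 keratin genes with 38 start sites. On either strand, TATAAA was in 55.3% of these 38, against 11.5% of all 35116 promoters of the same length in the table. These 38 held a median of 2 CpG dinucleotides, against 14 over all promoters, and none of the 38 held more than 8. GGGCGG was in 15.8% of the 38 and in 45% of all. TGANTCA was in 0 of the 38 and in 7.71% of all promoters. No motif but TATAAA was found in the 5 windows shown, so no motifs overlap there.

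Suprabasal keratins replace the basal pair when a keratinocyte leaves the basal layer. Of 12 members, 11 were tested, and 7 fell with CPI-0209, 6 with Valemetostat, 3 with MAK683, 1 with PF-06821497 and 0 with tazemetostat and CPI-1205, while none rose. Their median log2 fold change was -0.90 with CPI-0209, -0.99 with Valemetostat, -0.35 with MAK683, -0.03 with tazemetostat, -0.38 with PF-06821497 and -0.26 with CPI-1205. Over all genes tested, each of these medians lay between -0.02 and 0.02. The share of all genes called lower was 18.8% with CPI-0209, 12.2% with Valemetostat, 5.17% with MAK683 and 3.59% with PF-06821497. It was 0% with tazemetostat and with CPI-1205.

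KRT1, the type II keratin of cornifying epidermis (chromosome 12, 52674736 to 52680407, minus strand), stood at 88.4, 66.0 and 78.2 RPKM in the CPI-0209 libraries, at 127, 252 and 76.2 RPKM with Valemetostat, at 284, 507 and 414 RPKM with MAK683, and at 851, 1079.7 and 1169 RPKM with vehicle. All 9 libraries of these 3 compounds lay below the lowest vehicle library. The log2 fold change was -3.74 (SE 0.36, adjusted p = 1.37e-07) with CPI-0209, -2.77 (SE 0.34, adjusted p = 6.11e-06) with Valemetostat and -1.36 (SE 0.33, adjusted p = 0.00644) with MAK683. Under the other compounds KRT1 was at 749.7, 749 and 980.2 RPKM with tazemetostat, 611, 373 and 589 RPKM with PF-06821497 and 813, 668 and 468 RPKM with CPI-1205. The PF-06821497 and CPI-1205 libraries also lay wholly below vehicle, but their log2 fold changes of -0.98 (adjusted p = 0.0632) and -0.67 (adjusted p = 0.405) did not pass. With no low-count filter, edgeR called KRT1 lower with both (adjusted p = 2.43e-08 and 0.00346). PF-06821497 also passed in the fit of the compared groups alone (0.0139). The tazemetostat libraries overlapped vehicle.

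KRT10, the type I partner of KRT1 (chromosome 17, 40818117 to 40822595, minus strand), was at 135, 130.3 and 132 RPKM with CPI-0209, 149, 226 and 143 RPKM with Valemetostat, 235, 377 and 373 RPKM with MAK683, 426, 268 and 393 RPKM with PF-06821497, and 690.3, 854 and 925 RPKM with vehicle. Every library of these 4 compounds lay below every vehicle library, and the CPI-0209 libraries were nearly equal to each other. KRT10 was the only keratin to fall with 4 compounds: its log2 fold change was -2.63 (SE 0.24, adjusted p = 4.76e-08) with CPI-0209, -2.25 (SE 0.24, adjusted p = 6.45e-07) with Valemetostat, -1.33 (SE 0.23, adjusted p = 0.000365) with MAK683 and -1.18 (SE 0.23, adjusted p = 0.00228) with PF-06821497. With CPI-1205 it was at 515, 522 and 330.0 RPKM, also below all vehicle libraries, with a log2 fold change of -0.85 that did not pass in edgeR (adjusted p = 0.279) but did with DESeq2 (adjusted p = 0.0488). With no low-count filter, edgeR also called KRT10 lower with CPI-1205 (adjusted p = 1.28e-05). With tazemetostat it was at 526, 473 and 759 RPKM, which overlapped vehicle. KRT10 overlaps the gene KRT10-AS1 on the opposite strand over 3490 bases, and the strand setting of the counting is not given in the sources used here.

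**Figure D1:**
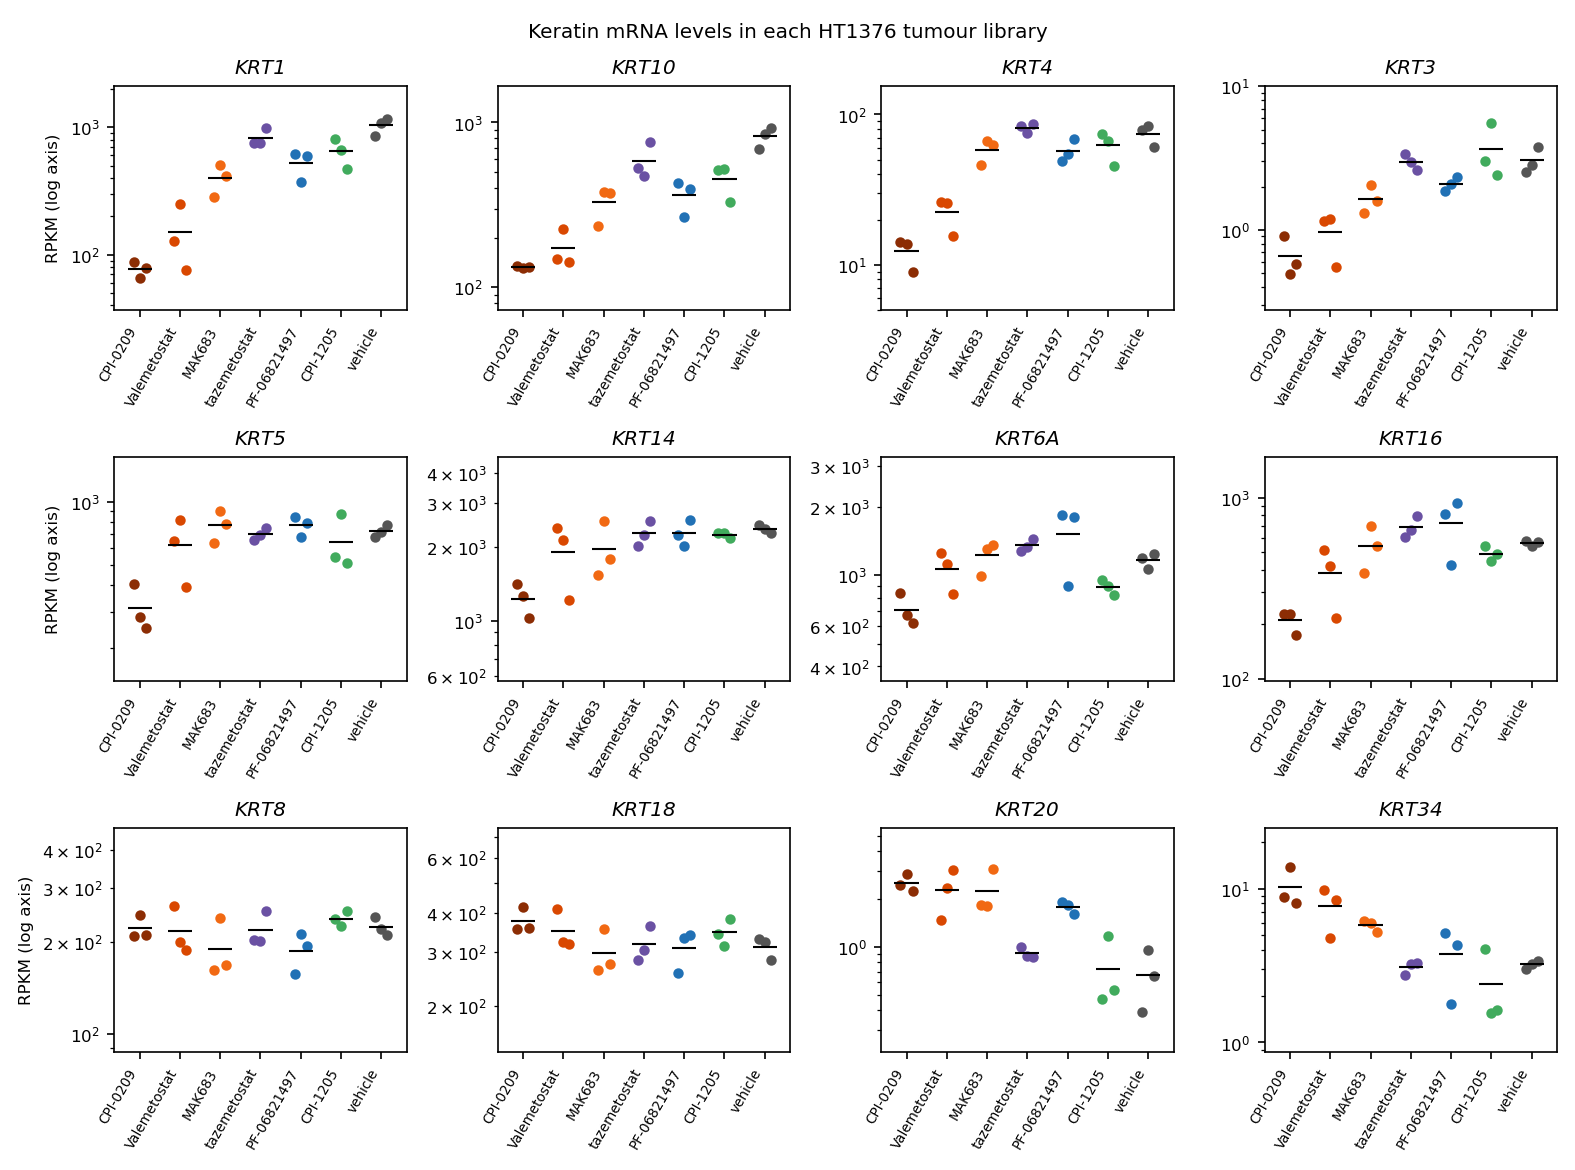
Level of 12 keratins in each library, as RPKM on a log axis, with 1 point per library and a black line at the mean of 3; groups run across each panel with vehicle at the right. KRT1, KRT10, KRT4 and KRT3 are on average lowest with CPI-0209 and next lowest with Valemetostat. KRT8 and KRT18 differ less between groups than the other keratins shown, with KRT18 on average highest with CPI-0209. KRT20 and KRT34 are on average highest with CPI-0209.

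The pair KRT4 and KRT13, which marks the suprabasal cells of non-cornifying mucosa, moved unequally. KRT4 was at 14.1, 13.7 and 8.97 RPKM with CPI-0209 and 26.0, 25.6 and 15.6 RPKM with Valemetostat, against 78.7, 84.4 and 60.7 RPKM with vehicle. Neither compound's libraries overlapped vehicle, and the log2 fold changes were -2.60 (SE 0.23, adjusted p = 2.8e-08) and -1.74 (SE 0.22, adjusted p = 5.28e-06). KRT13 was at 17.7, 20.6 and 16.5 RPKM with CPI-0209 and at 19.4, 32.0 and 23.5 RPKM with vehicle. These overlapped, and the log2 fold change of -0.45 (SE 0.24, adjusted p = 0.141) did not pass. KRT13 was called lower in edgeR with no low-count filter (adjusted p = 0.00667) and in the fit of the compared groups alone (0.0492). Whether the members of the pair changed by different amounts was not tested.

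The other suprabasal keratins were present at low levels. KRT3, known from the corneal epithelium, was at 0.913, 0.496 and 0.577 RPKM with CPI-0209, 1.15, 1.19 and 0.547 RPKM with Valemetostat and 1.31, 2.07 and 1.58 RPKM with MAK683, against 2.52, 2.84 and 3.80 RPKM with vehicle. None of the 3 compounds overlapped vehicle; the log2 fold change was -2.18 with CPI-0209, -1.65 with Valemetostat and -0.88 with MAK683, the last at an adjusted p of 0.048. That MAK683 call was lost without any 1 vehicle library and without MAK683 replicate 1 or 3 (adjusted p 0.0514 to 0.195), and with the filter of at least 1 CPM in 3 libraries (0.0549), upper-quartile scaling (0.0626) and limma-voom (0.0565). KRT77 fell with CPI-0209 and Valemetostat (log2 fold change -1.54 and -1.39), to means of 0.514 ± 0.105 and 0.576 ± 0.287 RPKM, against 1.52 ± 0.435 RPKM with vehicle. KRT78 also fell with both (-0.90 and -0.72), to 8.24 ± 0.923 and 9.36 ± 2.41 RPKM, against 15.5 ± 0.805 RPKM with vehicle, and its Valemetostat call was lost without vehicle replicate 2 or Valemetostat replicate 2 or 3 (adjusted p 0.0514 to 0.0736). KRT24 passed with CPI-0209 (-0.68, adjusted p = 0.0161), falling to 2.93 ± 0.663 RPKM, against 4.69 ± 0.0435 RPKM with vehicle; the call was lost with upper-quartile scaling (adjusted p = 0.059) and without CPI-0209 replicate 2 (0.1003). KRT9, the keratin of palm and sole epidermis, was at 1.99 ± 0.139 RPKM with CPI-0209 and 2.30 ± 0.188 RPKM with vehicle, and did not pass with any compound. The remaining KRT2 and KRT12 were under 1 RPKM in every group and did not pass, and KRT76 was not tested.

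The basal keratins were the most abundant class. KRT5, the type II basal keratin, was at 406, 283 and 251 RPKM with CPI-0209, against 681, 717 and 775 RPKM with vehicle. KRT14, its type I partner, was at 1410.2, 1259 and 1025 RPKM with CPI-0209, against 2442, 2359 and 2280.4 RPKM with vehicle. For both genes all CPI-0209 libraries lay below all vehicle libraries, and the log2 fold change was -1.21 (SE 0.23, adjusted p = 0.000267) for KRT5 and -0.94 (SE 0.20, adjusted p = 0.000844) for KRT14. KRT15, which is found in basal and stem cells of stratified epithelium, fell to 7.49 ± 0.952 RPKM, against 13.0 ± 2.46 RPKM with vehicle (log2 fold change -0.79). KRT17, a keratin of basal cells of appendages and of activated epithelium, was at 1547, 1634 and 1334 RPKM with CPI-0209 and at 1876, 1859 and 1698 RPKM with vehicle; the groups did not overlap, but the log2 fold change of -0.27 (SE 0.20, adjusted p = 0.298) did not pass. Of the 4 basal keratins, 3 therefore fell with CPI-0209 and 0 with each of the other 5 compounds. Over all genes tested, 18.8% were lower with CPI-0209. With Valemetostat, KRT5 was at 652, 819 and 392 RPKM and KRT14 at 2385, 2125 and 1221 RPKM, so that only replicate 3 lay far below vehicle.

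The activation keratins are induced at wound edges. All 4 fell with CPI-0209, where 18.8% of all genes tested were lower, and none passed the test against vehicle with another compound. With no low-count filter, edgeR called KRT16 lower with Valemetostat (adjusted p = 0.00422). It then also called KRT6B and KRT6C higher with PF-06821497 (0.0448 and 6.82e-05). Set directly against Valemetostat, CPI-0209 passed for none of the 4. Against CPI-1205 it passed for KRT6B, KRT6C and KRT16 but not KRT6A (adjusted p = 0.224). KRT16 was at 228, 227 and 174 RPKM with CPI-0209, against 577, 543 and 569 RPKM with vehicle, with no overlap and a log2 fold change of -1.42 (SE 0.28, adjusted p = 0.00035). KRT6A was at 836, 672 and 621 RPKM with CPI-0209, against 1197, 1072 and 1246 RPKM with vehicle, with no overlap and a log2 fold change of -0.72 (SE 0.21, adjusted p = 0.00775). KRT6B and KRT6C had log2 fold changes of -1.10 and -1.20. These 3 genes are near copies: 9.3% of the 150-base stretches of KRT6A, 12.8% of those of KRT6B and 16.5% of those of KRT6C also occur in another member, so the division of reads among them is uncertain. With PF-06821497, KRT6A was at 1829.6, 899 and 1802 RPKM and KRT16 at 816, 425 and 929.9 RPKM, with replicate 2 below and the other libraries above all vehicle libraries for both genes. Without replicate 2, KRT6A, KRT6B and KRT6C were called higher with PF-06821497 (adjusted p = 0.0227, 0.0363 and 0.0151).

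Among simple keratins, KRT8 was at 209, 245 and 211 RPKM with CPI-0209 and at 241, 220.3 and 211 RPKM with vehicle. The groups overlapped, and the difference of -0.01 on the log2 scale had a 95% interval of -0.35 to 0.32. KRT18, the partner of KRT8, was at 353.9, 417 and 357 RPKM with CPI-0209 and at 330.2, 321 and 283 RPKM with vehicle. The groups did not overlap, but the log2 fold change of 0.27 (95% interval -0.04 to 0.58, adjusted p = 0.155) did not pass. KRT8 and KRT18 overlap each other over 1084 bases on opposite strands. KRT7, a keratin of ducts and urothelium, was at 217 ± 32.7 RPKM with CPI-0209 and 251 ± 27.6 RPKM with vehicle and did not pass (log2 fold change -0.21, 95% interval -0.56 to 0.14). KRT19 fell with CPI-0209 to 295, 330.0 and 297 RPKM, against 461, 486 and 393 RPKM with vehicle (log2 fold change -0.54, adjusted p = 0.0368), and this call was lost with RLE scaling (adjusted p = 0.0653), upper-quartile scaling (adjusted p = 0.14), DESeq2 (adjusted p = 0.0525), the filter of at least 1 CPM in 3 libraries (0.0797), without the resubmitted libraries (0.0555), and without vehicle replicate 1 or 2 or any 1 CPI-0209 library (adjusted p 0.0528 to 0.112).

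KRT20, the umbrella cell keratin (chromosome 17, 40875941 to 40885227, minus strand), was the simple keratin that rose. It was at 2.45, 2.86 and 2.23 RPKM with CPI-0209, 1.47, 2.33 and 3.02 RPKM with Valemetostat, 1.84, 1.8 and 3.10 RPKM with MAK683 and 1.91, 1.84 and 1.62 RPKM with PF-06821497, against 0.392, 0.955 and 0.656 RPKM with vehicle. No library of these 4 compounds reached down to the highest vehicle library. The log2 fold change was 1.91 (SE 0.34, adjusted p = 0.000137) with CPI-0209, 1.75 (SE 0.34, adjusted p = 0.000529) with Valemetostat, 1.74 (SE 0.34, adjusted p = 0.001) with MAK683 and 1.41 (SE 0.34, adjusted p = 0.0104) with PF-06821497, where it was lost without vehicle replicate 1 (adjusted p = 0.0623). With tazemetostat it was at 0.996, 0.872 and 0.865 RPKM and with CPI-1205 at 0.467, 1.16 and 0.533 RPKM, both overlapping vehicle and not past the test. In all groups KRT20 stayed far under KRT8 and KRT18.

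Of 17 hair keratins 8 were tested, and 2 rose with CPI-0209 and Valemetostat. As a class this is near the share of all genes called higher, 22.3% with CPI-0209 and 15% with Valemetostat. KRT34, a type I hair keratin (chromosome 17, 41377650 to 41382403, minus strand), was at 8.79, 13.8 and 8.08 RPKM with CPI-0209 and 9.84, 4.79 and 8.38 RPKM with Valemetostat, against 3.00, 3.26 and 3.38 RPKM with vehicle. All 6 treated libraries lay above vehicle, and the log2 fold change was 1.67 (SE 0.35, adjusted p = 0.000706) and 1.25 (SE 0.35, adjusted p = 0.0103), the second lost without Valemetostat replicate 1 (adjusted p = 0.0622). With MAK683 it was at 6.14, 5.95 and 5.26 RPKM, also above all vehicle libraries, but the log2 fold change of 0.85 did not pass (adjusted p = 0.115). In edgeR this rise passed with no low-count filter (adjusted p = 0.000814) and without the resubmitted libraries (0.0447). It also passed in the fit of the compared groups alone (0.00144). KRT81, a type II hair keratin, was at 2.75, 5.66 and 1.59 RPKM with CPI-0209, 3.07, 1.54 and 2.74 RPKM with Valemetostat and 1.15, 2.00 and 2.53 RPKM with MAK683, against 0.727, 0.718 and 0.724 RPKM with vehicle. It rose with all 3 (log2 fold change 2.22, 1.76 and 1.39), with no overlap. The MAK683 call was lost without any 1 vehicle library or without MAK683 replicate 3 (adjusted p 0.0554 to 0.096). KRT81 shares 25.6% of its 150-base stretches with KRT86 and overlaps it over 5622 bases on the opposite strand, so the reads of the pair may be split between them. KRT86 itself was at 1.53 ± 0.269 RPKM with CPI-0209 and 1.16 ± 0.095 RPKM with vehicle and did not pass. KRT86 also overlaps the far more abundant KRT7 over 2887 bases on the same strand, so its low level is uncertain.

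Of 9 inner root sheath and companion layer keratins 5 were tested, and KRT75, the companion layer keratin, passed with MAK683. It was at 20.7, 23.3 and 22.2 RPKM with MAK683 and at 11.3, 10.8 and 15.3 RPKM with vehicle, with no overlap (log2 fold change 0.82, SE 0.27, adjusted p = 0.0432); with CPI-0209 it was at 10 ± 2.77 RPKM. The call was lost with the replicate block (adjusted p = 0.0575) and without vehicle replicate 1 or 2 or any 1 MAK683 library (0.0746 to 0.154). KRT75, like KRT77, KRT13 and KRT23, overlaps an antisense gene, whose reads may be counted with it. In the remaining class, KRT79 was at 26.6, 26.8 and 16.0 RPKM with CPI-0209 and 45.3, 54.8 and 31 RPKM with Valemetostat, against 95.8, 82.1 and 69.6 RPKM with vehicle, and fell with both (log2 fold change -1.83 and -0.92, the second lost without Valemetostat replicate 3 at an adjusted p of 0.0576). KRT80 fell with both as well (-1.61 and -1.22), to 20.9 ± 3.48 and 27.6 ± 8.15 RPKM, against 64.1 ± 7.28 RPKM with vehicle; its Valemetostat call was lost without vehicle replicate 2 or 3 or Valemetostat replicate 2 or 3 (adjusted p 0.0706 to 0.111) and with upper-quartile scaling (0.0518). In PF-06821497 and CPI-1205 tumours KRT80 was uneven, at 61.0, 17.7 and 60 RPKM and at 72.6, 28.9 and 23.9 RPKM. KRT222 was under 1 RPKM in every group and was lower with CPI-0209 and Valemetostat; 55.1% of its stretches occur in AC073508.2, which overlaps it on the same strand, so its counts are uncertain. KRT23 was at 72.1 ± 11.2 RPKM with CPI-0209 and 96.0 ± 7.02 RPKM with vehicle and did not pass. It was called lower in edgeR with no low-count filter (adjusted p = 0.0127) and in the fit of the compared groups alone (0.0181). The 14 keratins that were not tested had 7 to 107 counts over all libraries and a highest group mean of 0.288 RPKM.

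**Figure D2:**
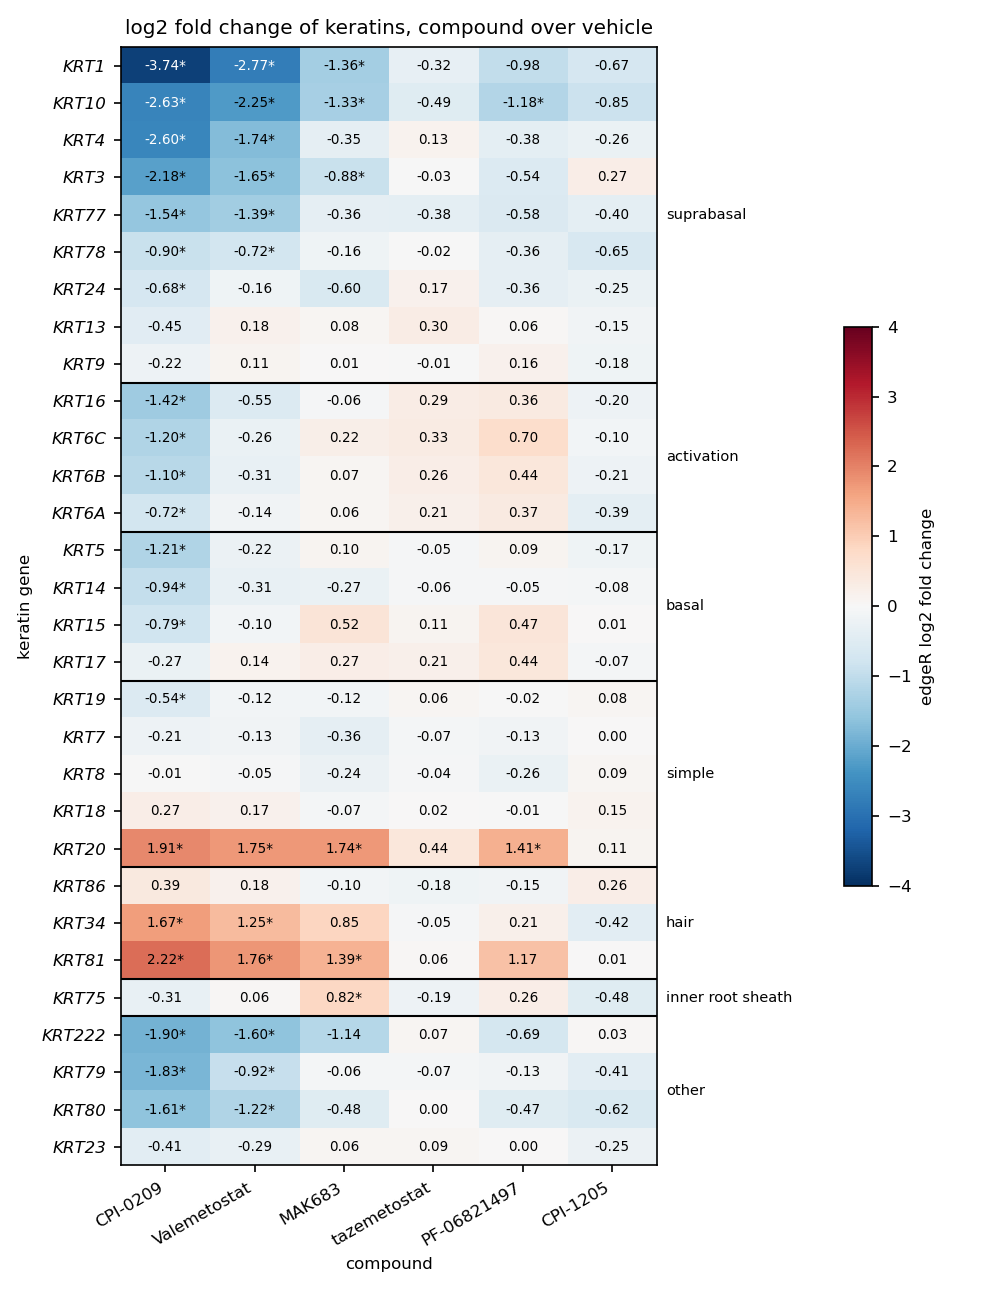
Log2 fold change of 30 keratins (rows, grouped by class) for each compound over vehicle (columns), from the edgeR fit; blue is lower and red higher than vehicle, and an asterisk marks an adjusted p under 0.05. The blue block is deepest for suprabasal keratins with CPI-0209 (KRT1 at -3.74) and Valemetostat (KRT1 at -2.77), and the tazemetostat and CPI-1205 columns carry no asterisk.

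These changes altered the make-up of the summed keratin level. It was 5668 ± 604 RPKM with CPI-0209, 8068 ± 2121 RPKM with Valemetostat, 9271 ± 1914 RPKM with MAK683, 10611 ± 1197 RPKM with tazemetostat, 10671 ± 2208 RPKM with PF-06821497, 9042 ± 721 RPKM with CPI-1205 and 10488 ± 88.6 RPKM with vehicle. Suprabasal keratins made up 4.54% ± 0.450 of this sum with CPI-0209, 4.90% ± 1.13 with Valemetostat, 8.98% ± 0.726 with MAK683, 14.6% ± 1.28 with tazemetostat, 9.28% ± 0.753 with PF-06821497, 13.3% ± 2.34 with CPI-1205 and 18.9% ± 2.55 with vehicle. With each of the 6 compounds the highest library was below the lowest vehicle library, at 16.0%. Simple keratins made up 19.9% ± 2.13 with CPI-0209 and 11.8% ± 1.10 with vehicle, and basal keratins 53.9% ± 1.34 with CPI-0209 and 46.8% ± 1.60 with vehicle. Shares sum to the whole, so 1 class can gain share while its own level falls, as the basal class did. No test was run on these shares or on the ratios that follow.

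Ratios within a library do not depend on its scaling. KRT1 over KRT5 was 0.254 ± 0.0499 with CPI-0209, 0.232 ± 0.0651 with Valemetostat, 0.511 ± 0.0582 with MAK683, 1.17 ± 0.116 with tazemetostat, 0.671 ± 0.106 with PF-06821497, 1.05 ± 0.379 with CPI-1205 and 1.42 ± 0.149 with vehicle. CPI-0209 and Valemetostat thus had like ratios of suprabasal to basal type II keratin, although KRT5 passed against vehicle with CPI-0209 and not with Valemetostat. KRT8 over KRT5 was 0.740 ± 0.196 with CPI-0209, 0.375 ± 0.120 with Valemetostat and 0.311 ± 0.0409 with vehicle. KRT10 over KRT1 was 1.73 ± 0.227 with CPI-0209, 1.31 ± 0.505 with Valemetostat, 0.824 ± 0.0795 with MAK683 and 0.798 ± 0.0117 with vehicle. For the basal pair, KRT5 over KRT14 was 0.252 ± 0.0321 with CPI-0209, 0.327 ± 0.0562 with Valemetostat, 0.404 ± 0.0433 with MAK683 and 0.308 ± 0.0306 with vehicle, and the CPI-0209 and Valemetostat libraries overlapped vehicle. Summed type I over summed type II keratin was 2.18 ± 0.146 with CPI-0209, 1.97 ± 0.143 with Valemetostat and 1.61 ± 0.122 with vehicle.

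**Figure D3:**
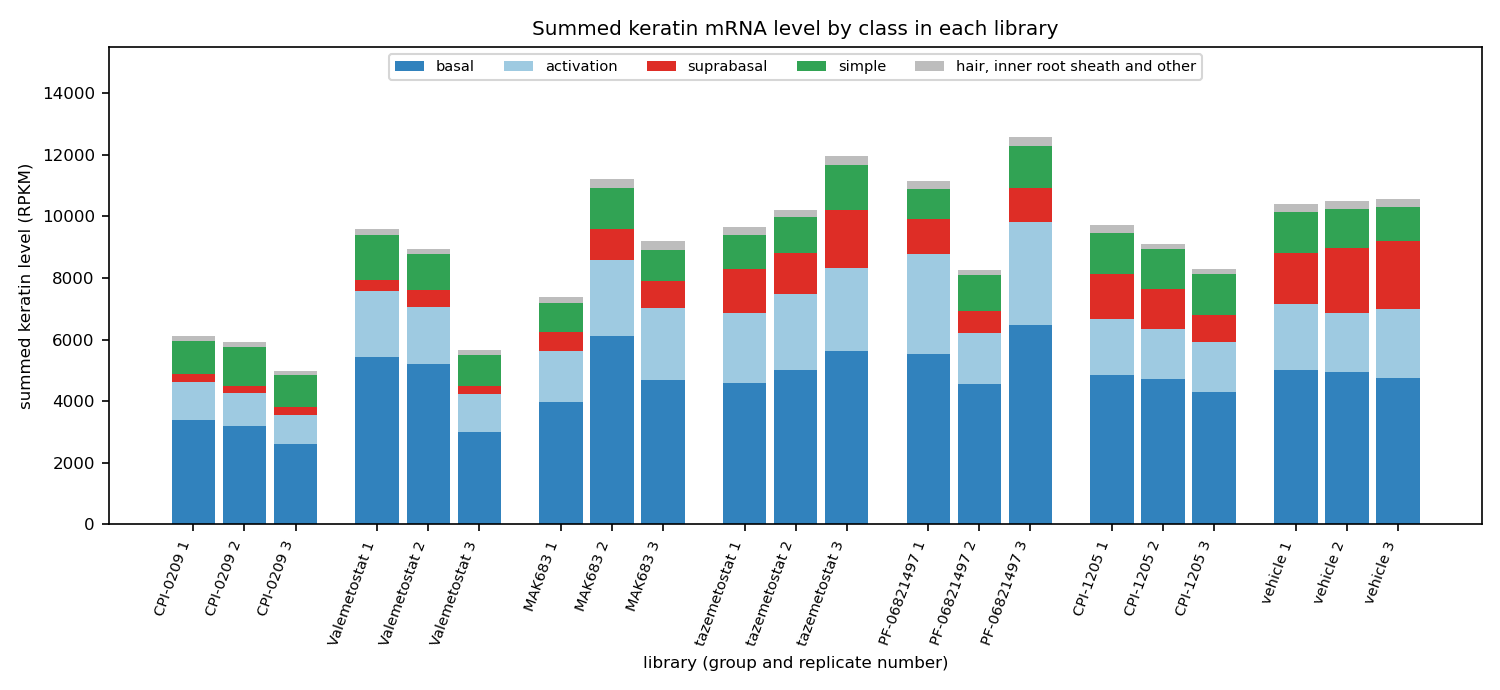
Summed keratin level in each library, in RPKM, stacked by class, with 1 bar per library and vehicle at the right. The suprabasal part is 4.54% of the bar on average with CPI-0209 and 18.9% with vehicle, and Valemetostat replicate 3 and PF-06821497 replicate 2 are the lowest libraries of their groups.

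The CPI-0209 calls ran together along part of chromosome 12. From KRT1 to KRT78, the genes KRT1, KRT77, KRT3, KRT4, KRT79 and KRT78 stand side by side between positions 52674736 and 52849092 with only KRT76, which was not tested, among them. All 6 tested genes were lower with CPI-0209 and with Valemetostat. Of all 41 keratins tested, 18 and 9 were lower with these compounds, and the ends of the run were read from the calls. The genes KRT6B, KRT6C, KRT6A and KRT5 also stand side by side, and all 4 were lower with CPI-0209, while none passed with Valemetostat. Around the run from KRT1 to KRT78, KRT2 before KRT1 and KRT8 with KRT18 after KRT78 did not pass with either compound. On chromosome 17 KRT10 stood between KRT28, which was not tested, and KRT12, which did not pass, and the keratin after these, KRT20, rose. KRT2 had only 3 to 12 counts per library and KRT12 only 8 to 31, so their lack of a call marks no edge.

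**Figure D4:**
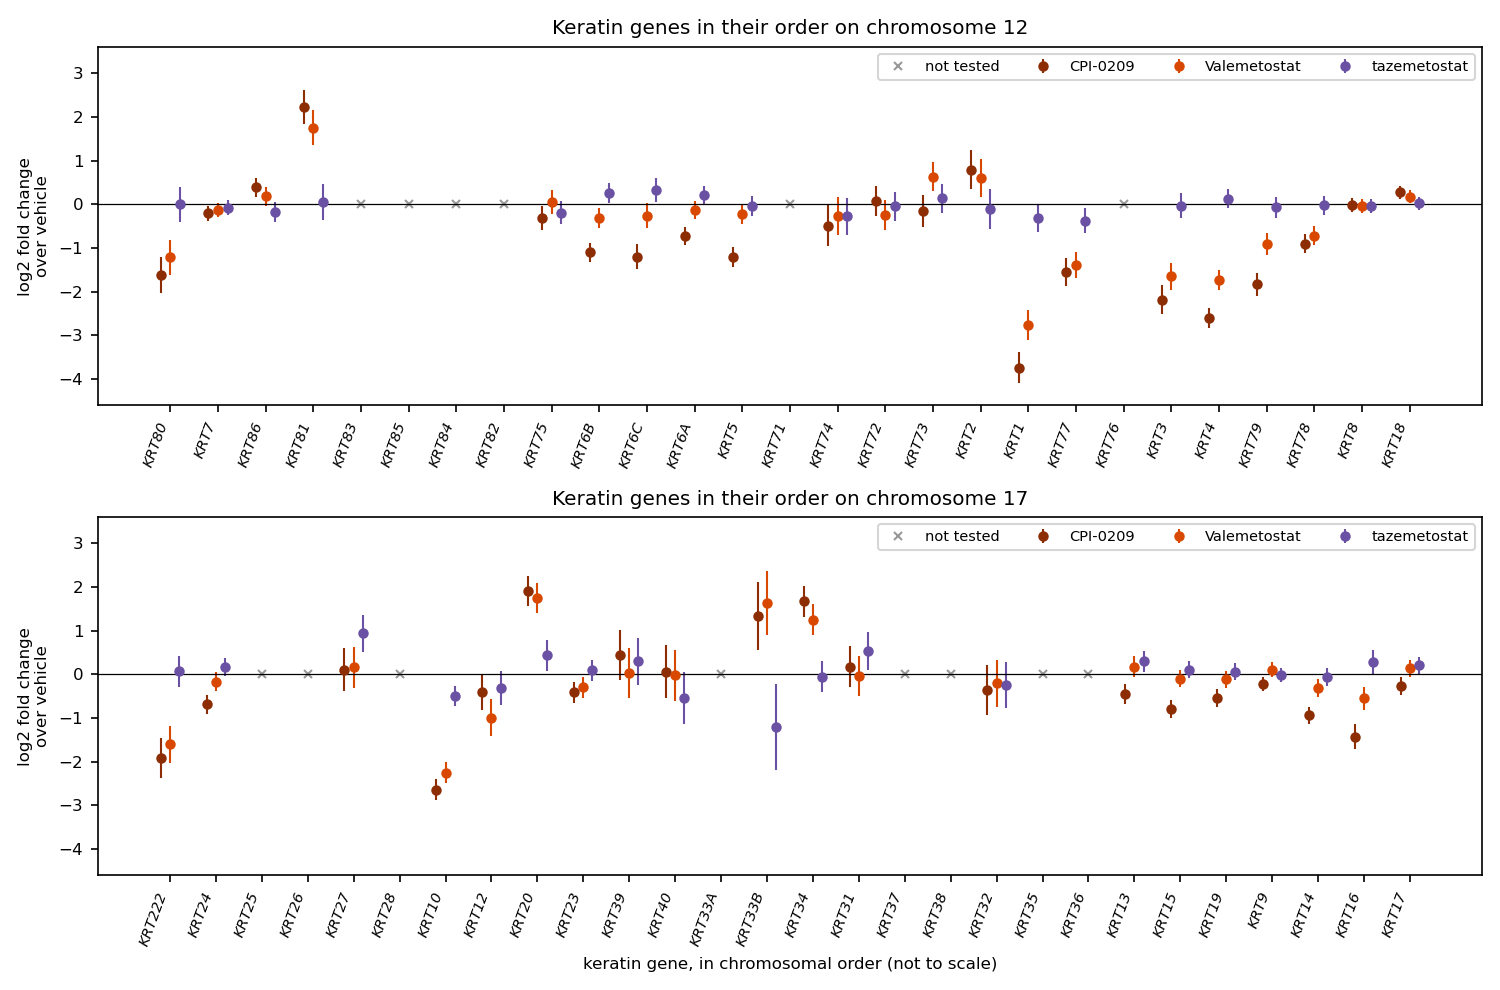
Log2 fold change over vehicle with its SE (bars) for CPI-0209, Valemetostat and tazemetostat, with keratin genes in their order on chromosomes 12 and 17; grey crosses mark genes not tested. The 6 tested genes from KRT1 to KRT78 lie below 0 with CPI-0209 and Valemetostat, and KRT8 and KRT18 beside them lie near 0.

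The compounds were next compared with each other at the same dose and time, in 5 comparisons that share the CPI-0209 libraries and were each adjusted over all genes; CPI-0209 was chosen for them with its larger response known. A test of any difference among the 6 compounds passed for 22 of 41 keratins, against 32.3% of all genes tested. CPI-0209 had 4 keratins higher and 19 lower than tazemetostat, where 37% of all genes passed (20.3% higher and 16.7% lower). It had 3 higher and 14 lower than CPI-1205, where 35.2% passed (19.9% higher and 15.3% lower). It had 2 higher and 14 lower than PF-06821497, where 22.6% passed (13.9% higher and 8.66% lower), and 0 higher and 15 lower than MAK683, where 9.08% passed (5.05% higher and 4.03% lower). KRT1 differed by -3.41 (SE 0.35) on the log2 scale from tazemetostat, by -3.07 (SE 0.35) from CPI-1205, by -2.76 (SE 0.34) from PF-06821497 and by -2.37 (SE 0.34) from MAK683. KRT16 differed by -1.71, -1.22, -1.79 and -1.36 in the same order, and KRT5 by -1.16, -1.04, -1.30 and -1.31. KRT20 was higher than with tazemetostat (1.47) and CPI-1205 (1.79) and passed neither against PF-06821497 nor against MAK683. Against MAK683, 9 keratins were lower without CPI-0209 replicate 3, and 9 without MAK683 replicate 3.

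CPI-0209 and Valemetostat could not be told apart by the edgeR test for any keratin, nor for any gene (0% of genes tested). At an unadjusted p under 0.05, 14 keratins and 2708 genes differed, and DESeq2 called 5 keratins lower. Of the named keratins, KRT5 had the smallest adjusted p, 0.085: it was at 406, 283 and 251 RPKM with CPI-0209 and 652, 819 and 392 RPKM with Valemetostat, a log2 difference of -0.99 with a 95% interval of -1.47 to -0.51. Valemetostat replicate 3 alone came down to the CPI-0209 range, and without it 9 keratins were called lower with CPI-0209. For KRT1 the difference was -0.97 (95% interval -1.64 to -0.30) and for KRT10 -0.38 (-0.86 to 0.10). For KRT8 it was 0.03 (-0.30 to 0.36), and for KRT20 0.16 (-0.49 to 0.81).

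With the low-count filter in place, neither tazemetostat nor CPI-1205 gave a keratin past the edgeR threshold against vehicle. At an unadjusted p under 0.05 there were 2 keratins with tazemetostat (KRT10 and KRT27) among 647 genes, and 3 with CPI-1205 (KRT10, KRT73 and KRT78) among 2713 genes; DESeq2 called 0 with tazemetostat and 1, KRT10, with CPI-1205. The log2 fold change of KRT1 with tazemetostat was -0.32, with a 95% interval of -0.99 to 0.34.

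Genes whose products anchor keratin filaments were also examined. Of 13 desmosome genes, which encode the junctions that keratin filaments attach to, 11 fell and 0 rose with CPI-0209, 10 fell with Valemetostat, 4 with MAK683, 2 with PF-06821497 and 0 with tazemetostat and CPI-1205. DSC1, a desmosomal cadherin of upper epidermis, was at 0.404 ± 0.248 RPKM with CPI-0209 and 8.40 ± 3.12 RPKM with vehicle (log2 fold change -4.43). DSG1, another cadherin of upper layers, was at 15.5 ± 6.46 and 112.9 ± 28.4 RPKM in these groups (log2 fold change -2.86), and DSC3 and DSG3 of lower layers also fell (-1.82 and -1.76). Of 8 keratin linker and hemidesmosome genes 7 fell with CPI-0209, 5 with Valemetostat, 1 with MAK683, 4 with PF-06821497 and 0 with tazemetostat and CPI-1205; PLEC, the plakin that ties keratin to hemidesmosomes, was at 51.5 ± 7.36 RPKM with CPI-0209 and 109.5 ± 14.5 RPKM with vehicle, and COL17A1, ITGA6 and EPPK1 also fell. The median log2 fold change with CPI-0209 was -1.39 for the desmosome list and -0.91 for the linker list, against -0.02 for all genes tested. The share of all genes called lower was 18.8% with CPI-0209, 12.2% with Valemetostat, 5.17% with MAK683 and 3.59% with PF-06821497. It was 0% with tazemetostat and with CPI-1205.

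Of 22 cornified envelope genes, which build the protein shell of dying surface keratinocytes, 14 fell and 1 rose with CPI-0209, where 18.8% of all genes tested were lower and 22.3% higher. The median log2 fold change of this list was -1.05, and that of all genes tested -0.02. FLG, encoding the filaggrin that bundles keratin filaments, was at 0.680 ± 0.105 RPKM with CPI-0209 and 6.17 ± 1.45 RPKM with vehicle (log2 fold change -3.18). CALML5, a calcium-binding protein of upper epidermis, was at 21.1 ± 0.993 RPKM with CPI-0209 and 189.7 ± 9.96 RPKM with vehicle (-3.17), and FLG2 and RPTN also fell. Of 17 epithelial transcription factors tested 12 fell and 1 rose with CPI-0209, with a median of -0.52; TP63, a regulator of the stratified programme, was at 10.49 ± 2.28 RPKM with CPI-0209 and 19.9 ± 2.05 RPKM with vehicle, and GRHL2, TFAP2A and PPARG also fell. Of 5 hair follicle factors 2 rose and 1 fell, with a median of 0.22: LEF1 was at 0.310 ± 0.0736 RPKM with CPI-0209 and 0.0164 ± 0.00741 RPKM with vehicle, HOXC13 also rose, FOXN1 fell, and MSX2 was at 14.3 ± 0.886 and 12.3 ± 2.02 RPKM and did not pass. Of 94 keratin-associated protein genes, which fill the hair shaft between filaments, 4 were tested and 3 rose with CPI-0209, with a median of 2.24 over those 4. The filter on low counts keeps a gene that is high enough in any 1 group. A gene near 0 with vehicle, such as LEF1, is thus tested only if some compound raises it. Counts of rises and medians over such genes may be set by the filter, so they are no result about the whole list.

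Of 8 urothelial luminal markers 5 were tested, and 3 fell and 1 rose with CPI-0209. UPK1B, a uroplakin, was at 132.6 ± 17.03 RPKM with CPI-0209 and 265.5 ± 13.5 RPKM with vehicle. GATA3 and PPARG, which are also in the list of epithelial transcription factors, fell as well, and UPK3B rose. KRT20 thus rose while the uroplakin with the highest level fell. UPK3A had no count in vehicle, and UPK1A and FOXA1 were under 0.2 RPKM in every group. Of 10 other intermediate filament genes tested 3 rose and 2 fell with CPI-0209, near the shares of all genes tested (22.3% higher and 18.8% lower). Among them NEFM, a neurofilament, was at 2.80 ± 0.635 RPKM with CPI-0209 and 0.105 ± 0.0169 RPKM with vehicle, NES and VIM rose, and LMNA, a nuclear lamin, fell. NEFM was low with vehicle, so the limit of the filter given for LEF1 may apply to it.

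Markers of skin and other tissues moved as well. Of 8 skin keratinocyte markers 7 fell with CPI-0209. All 8 are also in the cornified envelope list above, so this is not a separate result. Their summed level ran from 140 to 199 RPKM with CPI-0209 and from 585 to 700.4 RPKM with vehicle. Of 8 skeletal muscle markers 3 rose and 1 fell. Their sum was 727 RPKM in CPI-0209 replicate 3, against 117 and 170.1 RPKM in the other CPI-0209 libraries and 170.1 to 198 RPKM with vehicle. Most of the vehicle sum was TNNT3, whose mean was 161 RPKM with vehicle and 79.8 RPKM with CPI-0209. ACTA1 was at 8.56 and 101 RPKM in the same order, and the list's median log2 fold change was 3.59. The fall of TNNT3 can thus hide rises of other markers in the sum. The summed fibroblast markers ran from 161 to 442 RPKM with CPI-0209 and 98.9 to 164 RPKM with vehicle (3 of 6 rose and 1 fell), endothelial markers from 4.98 to 7.06 and 0.763 to 0.878 RPKM (3 of 5 rose and 1 fell), macrophage markers from 5.40 to 8.70 and 2.27 to 3.43 RPKM (3 of 4 tested rose), and adipocyte markers from 19.8 to 23.6 and 4.25 to 4.82 RPKM (2 of 3 tested rose). ADIPOQ and C1QA, which define adipocytes and macrophages, were at 0 in vehicle and at means of 0.0069 and 0.0802 RPKM with CPI-0209. FABP4 (15.4 RPKM with CPI-0209) and PECAM1 (3.53 RPKM) made up most of the adipocyte and endothelial sums. FABP4 was higher still with PF-06821497, at 25.0 RPKM. CDH5 fell from 0.314 RPKM with vehicle to 0.135 RPKM with CPI-0209, and COL1A2 from 98.3 to 50.9 RPKM. Over all genes tested, 22.3% were higher and 18.8% lower with CPI-0209. Hair follicle markers ran from 12.5 to 15.0 RPKM with CPI-0209 and 12.7 to 14.7 RPKM with vehicle (2 of 6 rose and 3 fell), and melanocyte markers from 1.18 to 1.54 and 1.41 to 1.68 RPKM (0 of 2 tested rose and 1 fell). The part of these other tissues in the keratin results was not tested. Without CPI-0209 replicate 3, which held the most muscle signal, 17 keratins were lower and 3 higher than vehicle, and KRT1 and KRT10 stood at log2 fold changes of -3.74 and -2.63. Without Valemetostat replicate 3, Valemetostat had 6 keratins lower and 3 higher than vehicle.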

How the data were processed

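RNA-seq counts per Ensembl gene were used as deposited by the authors, with no normalization, for 21 libraries of HT1376 xenografts. Per the submitters' processing notes, STAR 2.7.3a, RSEM 1.3.1 and build hg38 were used. Which program counted reads, with which strand setting and annotation release, is not given in the sources used here. Symbols and positions came from GENCODE 29, where 53 of the 55 keratins had the same start and end.

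Groups are the treatments that the labels give. Replicate numbers were taken from the titles. For the PF-06821497 libraries these numbers differ from those in the names of the count columns. Genes were filtered with filterByExpr (21958 kept), scaled by TMM and tested with edgeR 4.0.16 (R 4.3.3) in 1 quasi-likelihood fit with a term per group, two-sided, with a threshold of 0.05 on the Benjamini-Hochberg adjusted p. The fit was also run on simulated counts drawn with its own estimate of spread and with few changed genes. That run cannot show how well the fit suits these data. Alternatives were other filters, RLE and upper-quartile scaling, DESeq2 1.42.0, limma 3.58.1 (voom), other fits, a replicate block and each library left out. Libraries with a resubmission mark in their title were left out in 1 alternative. Keratins with a group mean of at least 1 RPKM, or with a call against vehicle, were named, and of each companion list the up to 4 members with the smallest p for CPI-0209. Members and lists were chosen with earlier results of these data known. Promoters came from RefSeq. Shared stretches are 150-base stretches of a transcript that occur in transcripts of another gene.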

Additional observations from a re-analysis of the deposited data

How the results depend on the processing

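No called value of a named keratin changed direction under any alternative tried. Counts of called keratins against vehicle stayed within 1.5 times for CPI-0209, Valemetostat and tazemetostat. With no low-count filter, MAK683 had 5 higher and 5 lower, PF-06821497 5 higher and 3 lower, CPI-1205 4 lower, and CPI-0209 had 11 lower than Valemetostat and 2 higher than MAK683. With DESeq2, PF-06821497 had 2 higher, CPI-1205 1 lower, and CPI-0209 5 lower than Valemetostat. With limma-voom and without the resubmitted libraries, CPI-0209 had 1 keratin higher than PF-06821497. In fits of the compared groups alone, MAK683 had 5 higher and 5 lower, PF-06821497 2 higher and 2 lower, and CPI-0209 1 higher than MAK683 and 1 higher than PF-06821497. The cause was not tested.

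Leaving out each library in turn gave 1 to 2 higher with MAK683, 0 to 5 higher with PF-06821497, 0 to 9 lower for CPI-0209 against Valemetostat, 9 to 15 lower against MAK683 and 1 to 2 higher against PF-06821497. MAK683 had 1 higher without vehicle replicate 1, vehicle replicate 2 or MAK683 replicate 3. PF-06821497 had 5 higher without its replicate 2, 2 without its replicate 1 and 0 without vehicle replicate 1. CPI-0209 had 9 lower than Valemetostat without Valemetostat replicate 3 and 2 without CPI-0209 replicate 1. It had 1 higher than PF-06821497 without CPI-0209 replicate 2 or any 1 PF-06821497 library.

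Equal replicate numbers showed no steady pairing of the samples: correlations of their deviations ran from -0.313 to 0.326, and 8 of 33 were over 0.1. The replicate block left CPI-0209 with 1 keratin higher than PF-06821497 and moved no other count by over 1.5 times. Depth limits the 14 keratins that were not tested.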
